A study of Mus musculus with 11 samples.

Results

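The marked microglia were nuclei of the microglial gate, from the cortex of the 2 mice of genotype ikbkbCA;P301S+, that held 2 or more summed UMIs of Ttn, Ddo, Rxrg, Tead1 and Ccr9. A UMI is a molecular tag that counts 1 captured RNA molecule. The nuclei were selected on the UMIs of these 5 genes, which had been chosen because microglia of these mice, with constitutively active IKKβ, carried more of them than microglia of the other mice in these data, so their levels and shares are given as a description, with no test. A nucleus entered the gate with 300 to 8000 genes, at most 5% mitochondrial UMIs, at least 3 of the 8 genes Inpp5d, Ly86, Siglech, Selplg, Ikzf1, Runx1, Dock8 and P2ry12, and at most 1 UMI of the excitatory neuron gene Slc17a7. The gate took 1422 nuclei in the ikbkbCA;P301S+ mice (754 in mouse 1 and 668 in mouse 2) and 5048 in all 11 mice. Of the 1422, 678 were marked, 419 held 0 marker UMIs and are called unmarked, and the rest held 1.

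Single-nucleus RNA was sequenced from frozen cortex after DAPI-stained nuclei were sorted. The 4 groups were ikbkb+/+ (4 mice, aged 9.8 to 10.85 months), ikbkb+/+;P301S+ (3 mice, 9.15 to 10.75 months), ikbkb-/-;P301S+ (2 mice, 8.39 to 9.15 months) and ikbkbCA;P301S+ (2 mice, mouse 1 at 10.85 and mouse 2 at 9.8 months). P301S+ mice carry a human tau transgene with a mutation of frontotemporal dementia, expressed in neurons. In ikbkb-/- mice the floxed Ikbkb gene was deleted, and in ikbkbCA mice a constitutively active IKKβ was switched on from the Rosa26 locus, both by a tamoxifen-inducible Cre in 1 allele of Cx3cr1. Tamoxifen was also given to the ikbkb+/+ mice, which carry floxed alleles but no Cre. The paper places 2 kinds of non-transgenic control under this label, with floxed Ikbkb or with the active-kinase allele not switched on. The labels do not tell them apart. The ikbkb-/-;P301S+ mice carry the Cre allele without the active kinase. Cx3cr1 is active in microglia and also in other brain macrophages. Marked and unmarked nuclei of 1 mouse share the inherited alleles, and each mouse gave 1 library. Whether the Cre had acted in a given nucleus was not measured.

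IKKβ, encoded by Ikbkb, is the kinase of the IKK complex that phosphorylates IκB proteins and so releases NF-κB dimers such as p50-RelA into the nucleus. NF-κB then raises its own brakes, among them IκB proteins and the ubiquitin-editing enzyme A20, together with cytokines, adhesion molecules and receptors. Microglia, the resident macrophages of the brain, use this pathway downstream of TNF, IL-1 and Toll-like receptors. The marker genes have no common role: Ttn encodes titin, the giant spring of the muscle sarcomere, Ddo encodes D-aspartate oxidase, Rxrg encodes the nuclear receptor RXRγ, Tead1 encodes a DNA-binding partner of YAP in the Hippo pathway, and Ccr9 encodes the receptor for the chemokine CCL25.

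Library size ranged from 7500 to 12315 barcodes and from 72007219 to 93205362 UMIs over the 11 mice, with 86132685 and 93205362 UMIs in the ikbkbCA;P301S+ mice. Any pair of libraries shared 15 to 45 barcodes, and the gated microglia of the 2 ikbkbCA;P301S+ mice shared 0. The targeted gene Ikbkb (chr8:22659212-22706589, minus strand) had 126 counts per 1000000 UMIs (CPM) in the marked nuclei of mouse 1 and 118 in those of mouse 2, against 146 and 134 in the unmarked nuclei and 101 to 138 in unmarked microglia of the other 9 mice. The 9 mice include the ikbkb-/-;P301S+ mice, which thus also stood at 101 CPM or more. These counts do not separate the endogenous gene from the kinase transgene.

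The marker genes lie on 5 chromosomes of the GRCm38 build: Ttn at chr2:76703980-76982547 on the minus strand, and on the plus strand Ddo at chr10:40630011-40681847, Rxrg at chr1:167598384-167639623, Tead1 at chr7:112679318-112906807 and Ccr9 at chr9:123678439-123784330. Ttn overlaps the antisense gene Gm13938. Ccr9 overlaps Lztfl1 and Slc6a20a on the other strand and Gm17200 on its own, so some of its UMIs could belong to Gm17200. The 250 bases before the start of each gene are shown because these genes were higher together in mice with an activated NF-κB kinase, beside those of Traf3 and Nfkbia, which encode NF-κB inhibitors. The sequences are from RefSeq (GRCm38.p6), where 4 of the 5 marker genes had an entry and Tead1 had none, and Rxrg had 2 starts, of which the first is shown. The windows end at the RefSeq start, which for Ccr9 and Rxrg is not the gene bound given above, and for Ccr9 lies inside those bounds. Capitals mark matches to GGGNNNNNCC, a loose form of the NF-κB site, on either strand, and matches may overlap.
Ttn, chr2:76982548-76982797, minus strand: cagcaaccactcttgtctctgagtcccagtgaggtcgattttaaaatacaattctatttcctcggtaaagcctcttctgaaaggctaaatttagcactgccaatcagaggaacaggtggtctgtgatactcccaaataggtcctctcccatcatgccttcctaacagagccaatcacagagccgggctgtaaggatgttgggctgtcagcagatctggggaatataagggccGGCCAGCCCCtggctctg
Ddo, chr10:40629761-40630010, plus strand: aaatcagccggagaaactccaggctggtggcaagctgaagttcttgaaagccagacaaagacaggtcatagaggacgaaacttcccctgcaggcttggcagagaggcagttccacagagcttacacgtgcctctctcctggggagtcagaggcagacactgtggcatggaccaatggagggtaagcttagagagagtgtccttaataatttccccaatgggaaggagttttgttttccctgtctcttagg
Rxrg, chr1:167598112-167598361, plus strand: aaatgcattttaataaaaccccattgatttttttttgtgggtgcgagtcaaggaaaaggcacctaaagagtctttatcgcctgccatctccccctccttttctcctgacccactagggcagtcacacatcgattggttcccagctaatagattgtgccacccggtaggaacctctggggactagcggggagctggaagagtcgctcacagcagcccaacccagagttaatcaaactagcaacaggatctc
Ccr9, chr9:123766961-123767210, plus strand: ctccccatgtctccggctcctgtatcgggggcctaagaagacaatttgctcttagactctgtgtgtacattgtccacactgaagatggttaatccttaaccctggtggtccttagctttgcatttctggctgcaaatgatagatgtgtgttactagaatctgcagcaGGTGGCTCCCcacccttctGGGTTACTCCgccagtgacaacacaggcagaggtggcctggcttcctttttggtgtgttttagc
Traf3, chr12:111166120-111166369, plus strand: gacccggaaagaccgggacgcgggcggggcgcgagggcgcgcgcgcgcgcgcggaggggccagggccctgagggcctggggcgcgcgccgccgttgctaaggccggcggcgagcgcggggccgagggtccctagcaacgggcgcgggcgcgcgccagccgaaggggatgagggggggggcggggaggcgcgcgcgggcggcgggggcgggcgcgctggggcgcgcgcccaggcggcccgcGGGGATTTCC
Nfkbia, chr12:55492648-55492897, minus strand: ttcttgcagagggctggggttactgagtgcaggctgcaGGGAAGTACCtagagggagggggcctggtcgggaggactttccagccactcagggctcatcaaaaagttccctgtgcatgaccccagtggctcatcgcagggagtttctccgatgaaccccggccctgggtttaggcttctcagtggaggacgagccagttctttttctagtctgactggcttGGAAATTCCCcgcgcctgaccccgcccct
GGGNNNNNCC was found in 45.8% of 32851 promoter windows of the same length, and in 2 of the 5 windows of marker genes, those of Ttn with 1 match and Ccr9 with 2. The stricter NF-κB consensus was found in 3.90% of all windows and in 0 of these 5. Traf3 and Nfkbia each held 1 match to it. A match describes the letters of the window and not binding.

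To determine how common the marked nuclei were, their share of gated microglia was taken in each mouse. It was 41.9% in ikbkbCA;P301S+ mouse 1 (316 of 754; Wilson 95% interval 38.4 to 45.5%) and 54.2% in mouse 2 (362 of 668; 50.4 to 57.9%), with a mean of 48.1% ± 8.68 (SD, n = 2). All intervals given here cover counting error only. In the other mice 125 of 3626 gated nuclei met the same rule. The shares were 1.97%, 2.86%, 2.09% and 5.46% in the ikbkb+/+ mice, 4.03%, 2.07% and 4.24% in the ikbkb+/+;P301S+ mice, and 3.42% and 2.80% in the ikbkb-/-;P301S+ mice. The lowest share in an ikbkbCA;P301S+ mouse was thus above the highest elsewhere, as the choice of genes fixes.

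The marked nuclei of the other 9 mice were deeper. Their median depth per mouse was 6848 to 14697 UMIs, against 2651.5 and 2831.5 in the marked nuclei of the ikbkbCA;P301S+ mice. With nuclei of more than 5000 UMIs left out, an alternative chosen after seeing the data, the share was 40.1% and 53.0% in the ikbkbCA;P301S+ mice and 0% to 1.86% in the others. It was 0 in 2 of those mice, of 288 and 193 nuclei, which allows up to 1.04% and 1.55%. With called doublets left out it was 41.1% and 53.9% against 0.307% to 1.80%, and with each nucleus thinned to 1500 UMIs, where 1 or more remaining marker UMIs counted as marked, it was 54.9% and 58.5% against 2.22% to 7.81%.

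**Figure D1:**
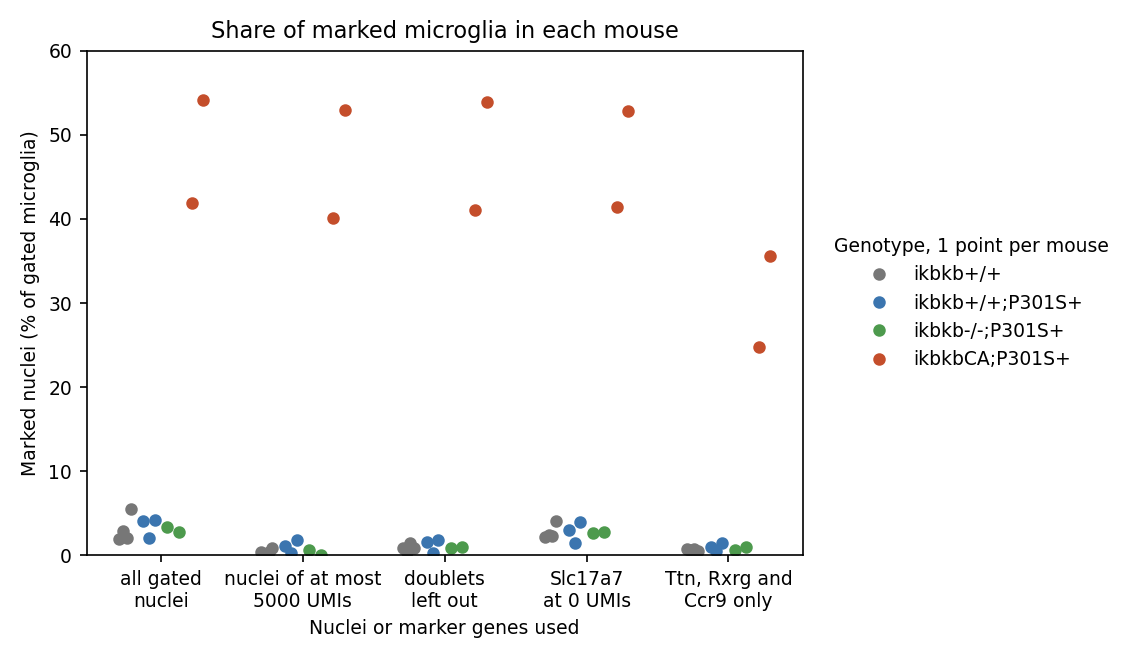
Share of marked nuclei in percent of gated microglia (vertical axis) with all gated nuclei, with subsets of nuclei or with 3 of the marker genes (horizontal axis), 1 point per mouse, coloured by genotype. The 2 ikbkbCA;P301S+ mice sit between 24.8% and 54.2% in the 5 settings plotted, and the other 9 mice sit at or under 5.46%.

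Each marker gene was detected in a larger share of gated microglia in both ikbkbCA;P301S+ mice than in any other mouse. Rxrg was seen in 36.7% and 40.1% of gated nuclei of mice 1 and 2, against 1.57% to 7.15% in the other 9 mice. Ddo was seen in 25.5% and 28.3%, against 0.697% to 3.97%. Ttn was seen in 15.8% and 27.1%, against 0% to 0.952%, with 0 of 298 and 0 of 214 nuclei in the 2 mice at 0, which allows up to 1.01% and 1.40%. Tead1 was the gene with the highest level elsewhere, at 18.8% and 25.1% against 3.37% to 10.4%. Ccr9 was seen in 8.62% and 15.3%, against 0% to 1.39%, with 0 of 644 nuclei in 1 mouse, which allows up to 0.466%. The median depth of gated nuclei was 2400 and 2567 UMIs in the ikbkbCA;P301S+ mice and 1497.5 to 2524 in the others.

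Oligodendrocytes, a cell type of like depth in which the Cx3cr1 promoter is not known to be active, were taken for comparison. How much of the marker RNA in them was stray was not tested. In oligodendrocyte nuclei of the ikbkbCA;P301S+ mice (median 2557 and 2925 UMIs), Ttn was detected in 0.456% to 0.721%, Rxrg in 1.63% to 3.19%, Ccr9 in 0.557% to 0.769%, Ddo in 0.709% to 2.69% and Tead1 in 4.66% to 7.21%. Altogether 2.23% to 3.80% of them held 2 or more marker UMIs, against 1.15% to 5.23% in oligodendrocytes of the other 9 mice. The shares in microglia of the other 9 mice, 1.97% to 5.46%, overlapped this range, with 1 mouse above it, and microglia of the ikbkbCA;P301S+ mice lay above it. Astrocytes differed in that Ddo and Tead1 are common in them: 44.7% to 63.0% of astrocyte nuclei of the ikbkbCA;P301S+ mice held Ddo and 72.5% to 72.6% held Tead1, with 39.9% to 53.3% and 58.4% to 71.5% in the other mice. For that reason the share was also taken with Ttn, Rxrg and Ccr9 alone, which each stood at or under 5.09% in astrocytes. It was 24.8% and 35.6% in the ikbkbCA;P301S+ mice and 0.496% to 1.45% in the others. Outside microglia some values were higher in the ikbkbCA;P301S+ mice as well. Of their astrocyte nuclei, 63.3% to 72.2% held 2 or more marker UMIs, against 47.0% to 62.7% in the other 9 mice. In excitatory neuron nuclei these ranges were 27.8% to 32.6% and 16.3% to 31.1%, which overlapped. Ttn there stood at 2.50% to 2.65% against 1.18% to 2.15%, and Ccr9 in astrocytes at 1.76% to 2.21% against 0.329% to 1.55%. The Rxrg ranges overlapped in both cell types.

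The marker sum was graded and had no gap. In mouse 1, 247 nuclei (32.8%) held 0 marker UMIs, 191 (25.3%) held 1, 127 held 2, 82 held 3, 52 held 4 and 55 held 5 or more. In mouse 2 these numbers were 172 (25.7%), 134 (20.1%), 110, 76, 55 and 121. Nuclei just inside the threshold, at 2 UMIs, had a median depth of 2477 and 2575.5 UMIs, and those just outside, at 1 UMI, had 2271 and 2390. Depth rose along the marker sum, from 2231 and 2351.5 UMIs at 0 to 2999 and 3062 at 5 or more. Thinned to 1500 UMIs, nuclei with 1 marker UMI held 2.37 and 2.56 UMIs of the NF-κB feedback regulators, and nuclei with 2 or more held 2.52 and 2.50.

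**Figure D2:**
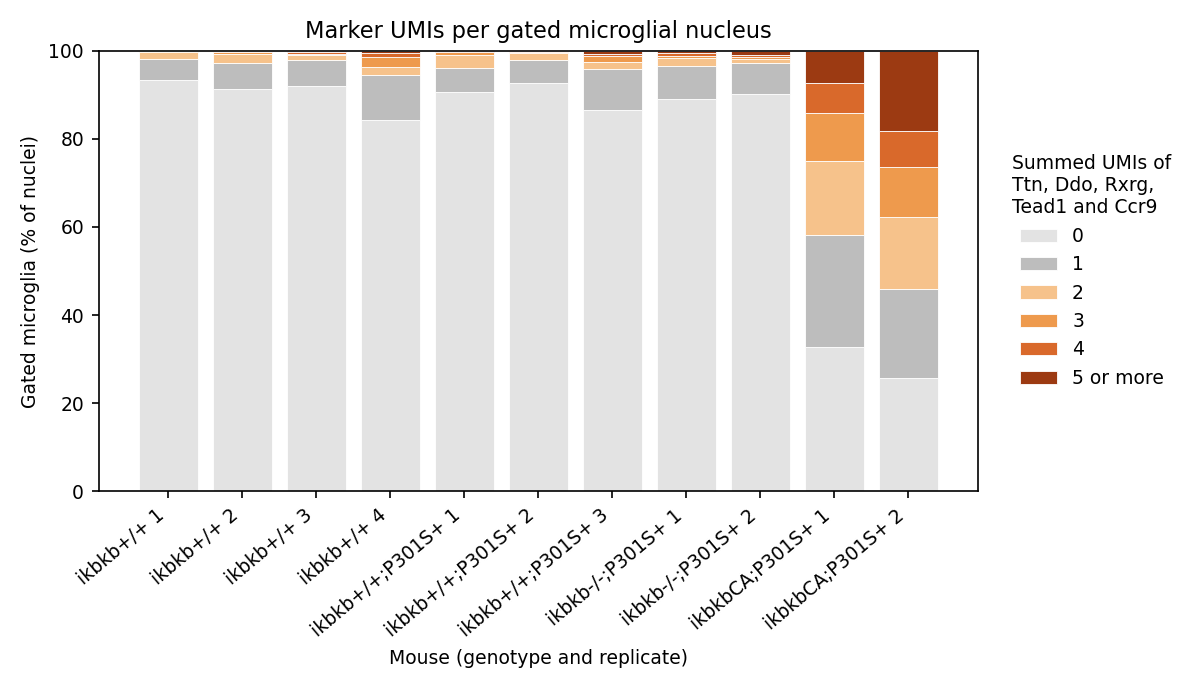
Gated microglia of each mouse (horizontal axis) divided by their summed UMIs of Ttn, Ddo, Rxrg, Tead1 and Ccr9, in percent of nuclei (vertical axis, from 0 to 100). Nuclei with 0 marker UMIs make up 32.8% and 25.7% of the bars of the 2 ikbkbCA;P301S+ mice, and most of every other bar.

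Within the marked nuclei, all 5 genes took part. In mouse 1, Rxrg was present in 194 of 316 marked nuclei, Ddo in 141, Tead1 in 117, Ttn in 102 and Ccr9 in 50. In mouse 2, Rxrg was present in 210 of 362, Ttn in 166, Ddo in 165, Tead1 in 144 and Ccr9 in 89. Rxrg was the most often seen in both mice and Ccr9 the least.

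Ttn held the largest share of marker UMIs in mouse 2 (507, 32.7%) and Rxrg in mouse 1 (318, 29.5%). Up to 12 and 16 Ttn UMIs fell in 1 nucleus, while no nucleus held more than 5 and 6 of Rxrg. At 1500 UMIs per nucleus, the variance of Ttn over gated nuclei was 2.53 and 2.64 times its mean, and that of Rxrg was 1.14 and 1.11 times. The same ratio was 1.21 and 1.51 for Ddo, 1.40 and 1.56 for Tead1 and 1.37 and 1.55 for Ccr9, and 1.19 to 2.84 for the gate genes. Ttn thus came as several UMIs in fewer nuclei, and Rxrg as single UMIs spread over many.

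Most marked nuclei held 2 of the 5 genes: 161 of 316 (50.9%) in mouse 1 and 195 of 362 (53.9%) in mouse 2. Nuclei with 1 gene alone numbered 98 (31.0%) and 70 (19.3%), with 3 genes 45 (14.2%) and 76 (21.0%), and with 4 genes 11 (3.48%) and 19 (5.25%). All 5 genes were together in 1 and 2 nuclei.

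To ask whether the marker genes fell into the same nuclei, each gene's detection was compared between nuclei with 0, 1 and 2 or more UMIs of the other 4, after thinning to 1500 UMIs (727 and 643 nuclei, 52 shallower ones left out). The nuclei of a mouse share a library, so these shares are a description. In mouse 2, detection was higher at each step for all 5 genes: Ttn 15.2%, 22.8% and 25.7%, Ddo 12.2%, 20% and 25.6%, Rxrg 22.8%, 30.1% and 33.1%, Tead1 11.6%, 17.3% and 19.1%, and Ccr9 6.97%, 9.47% and 12.3%. In mouse 1 this order was seen for Tead1 alone: Ttn stood at 10.4%, 15% and 11.7%, Ddo at 18.0%, 15.3% and 13.9%, Rxrg at 25.6%, 26.9% and 24.0%, Tead1 at 11.6%, 12.1% and 15.6%, and Ccr9 at 6.02%, 6.02% and 4.32%. The Wilson intervals of the 3 steps overlapped for every gene in mouse 1. In mouse 2 the lowest and the highest step lay apart for Ddo alone.

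**Figure D3:**
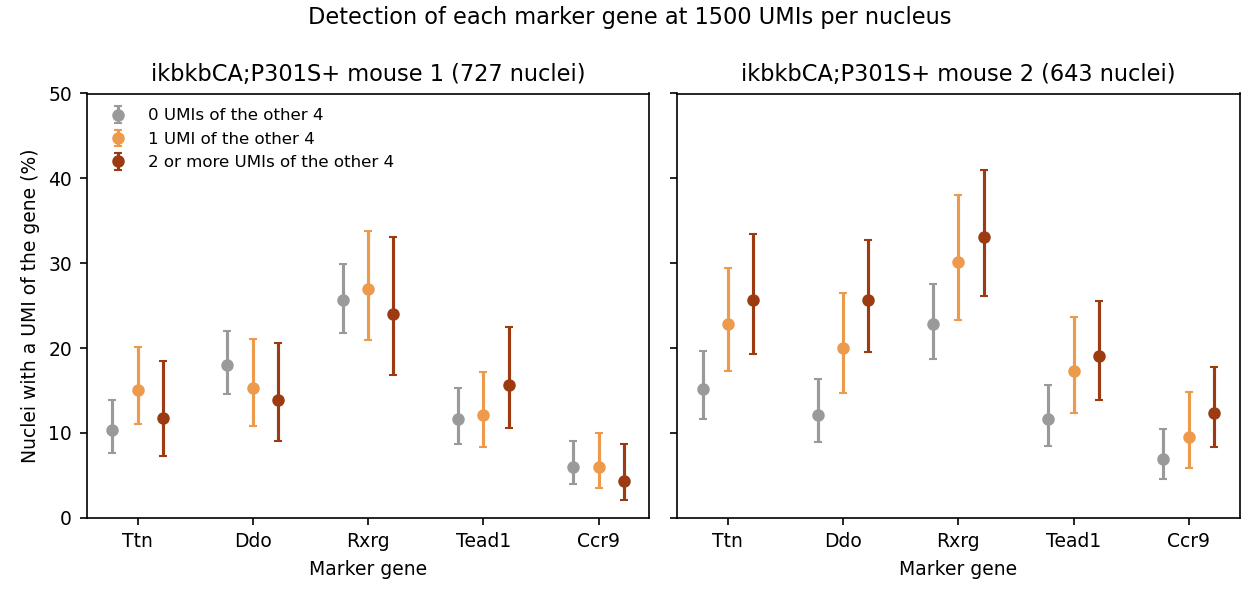
Percent of gated nuclei with a UMI of each marker gene (vertical axis) in the 2 ikbkbCA;P301S+ mice, thinned to 1500 UMIs, by whether the nucleus held 0, 1 or 2 or more UMIs of the other 4 genes; bars are 95% Wilson intervals. In mouse 2 each gene was seen more often with more UMIs of the others, for Ddo from 12.2% to 25.6%, and in mouse 1 Ddo went from 18.0% to 13.9%.

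Mouse 2 also held more nuclei with markers of other cells among its unmarked microglia, and these values stand beside the pattern above. Nuclei with at least 3 of 9 perivascular macrophage markers numbered 15 of 172 unmarked nuclei (8.72%) in mouse 2 and 2 of 247 (0.81%) in mouse 1, against 74 of 3237 (2.29%) in the other 9 mice. Among marked nuclei there were 3 (0.83%) and 1 (0.32%). Nuclei with at least 3 of 8 lymphocyte markers numbered 7 and 2 among the unmarked and 2 and 0 among the marked. With these nuclei and called doublets left out, the 3 steps in mouse 2 were 18.3%, 24.5% and 24.8% for Ttn, 14.7%, 19.1% and 26.0% for Ddo, and 27.8%, 32.3% and 35.5% for Rxrg. They were 12.7%, 16.7% and 19.3% for Tead1 and 7.69%, 10.0% and 13.3% for Ccr9. The order within mouse 2 was as before, and the distance from the lowest to the highest step was smaller for each gene but Ccr9. In mouse 1 no gene then rose at each step, with 13.7%, 11.4% and 15.3% for Tead1 and 20.5%, 15.6% and 13.7% for Ddo. In mouse 2 the intervals of the lowest and highest step of Ddo then overlapped, at 10.6 to 19.9% and 19.7 to 33.4%.

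The label of microglia was checked on 20 microglia markers that were not in the gate, among them Csf1r, C1qa and Tmem119. Their summed level was 7760 and 6457 CPM in the marked nuclei of mice 1 and 2 and 9624 and 7067 in the unmarked, against 8753 to 10460 in unmarked microglia of the other 9 mice. Both marked sums were below all 9 other mice for 7 of the 20 genes and both unmarked sums for 0, beside 3.73% and 3.58% of all genes tested. Markers of other cells were more frequent in marked nuclei of mouse 2 than of mouse 1: 13 and 0 nuclei held at least 5 of 10 astrocyte markers, 15 and 8 held at least 7 of 10 excitatory neuron markers, and 17 and 8 held at least 5 oligodendrocyte markers. In the other 9 mice, 28 of 125 marked nuclei (22.4%) passed the astrocyte count and 24 (19.2%) the neuron count.

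To determine what else differed in the marked nuclei, raw UMIs were summed per mouse and class and compared within mouse by edgeR's quasi-likelihood test, leaving out the marker and gate genes. The sums held 1158510 (marked) and 616493 (unmarked) UMIs in mouse 1 and 1422297 and 493462 in mouse 2. The fit held 13 sums, these 4 and the unmarked sum of each of the other 9 mice, which gave most of the estimate of spread. The difference within mouse was thus judged mostly against a spread between mice. Of 9549 genes tested, 0 were higher and 0 lower at an adjusted p under 0.05, which is 0% of the genes in either direction. At an unadjusted p under 0.05 there were 554 genes, 355 higher and 199 lower, and the smallest adjusted p was 0.471. DESeq2 also called 0 genes, with 231 at an unadjusted p under 0.05. The median log2 difference over all genes was -0.01, with 10% of genes under -0.42 and 10% over 0.49, and 53.4% of genes had the same sign in both mice. In counts simulated with a spread common to all genes, 22 of 76 genes changed 2-fold and 49 of 69 changed 3-fold were recovered. Changes of this size could thus have been missed. The simulation held no differences in spread between genes or in level between mice, so its recovery need not hold in the data.

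Other settings gave calls. With no filter on low counts, edgeR called 20 genes higher (0.0942% of 21231) and 12 lower (0.0565%). With the 4 sums of the 2 mice alone, which leave 1 residual degree of freedom, edgeR called 69 genes higher (0.733% of 9416) and 8 lower (0.085%). Those higher included Gria1, a glutamate receptor subunit, and Rbfox3, a neuronal splicing factor, both named after their values were seen. Nuclei of more than 5000 UMIs were 34 of 316 and 44 of 362 of the marked and held 35.9% and 37.5% of their UMIs. Among the unmarked they were 7 of 247 and 14 of 172, with 10.9% and 25.9% of UMIs. Without them, an alternative chosen after seeing the data, the 4 sums gave 3 genes higher and 13 lower, and 6 genes were in both sets: Aspa, Dab2, Fam19a1, Gm8113, Mrc1 and Skap1.

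Among the genes with the smallest p in the within-mouse comparison, some were lower in marked nuclei mainly in mouse 2. Others were higher in marked nuclei of both mice, and Mpeg1 was lower in those of both. F13a1, a coagulation factor subunit made by macrophages, had 1 UMI in the unmarked and 1 in the marked nuclei of mouse 1, and 100 and 1 in mouse 2. Dab2, an endocytic adaptor of perivascular macrophages, stood at 26.9 CPM in unmarked and 13.9 in marked nuclei of mouse 1, and at 188 and 9.06 in mouse 2 (log2 difference -3.04, SE 0.65, edgeR adjusted p = 0.689). Mrc1, the mannose receptor, stood at 45.9 and 34.7 CPM in mouse 1 and at 261 and 27.2 in mouse 2 (-2.07, SE 0.61, adjusted p = 0.754). The unmarked nuclei of mouse 2 were thus the high ones, and the other 3 sums were lower.

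Skap1, a T cell adaptor, had the same order, at 20.6 and 7.80 CPM in mouse 1 and 122 and 8.36 in mouse 2. Mpeg1, which encodes the pore-forming perforin-2 of macrophages, stood at 52.2 and 26.0 CPM in mouse 1 and 57.9 and 22.3 in mouse 2 (-1.18, SE 0.28, edgeR adjusted p = 0.689), with 39.1 to 60.1 in the other 9 mice, so that both marked sums were below every other sum. Fam19a1, which encodes a small secreted protein of neurons, stood at 226 and 560 CPM in mouse 1 and 245 and 475 in mouse 2 (1.13, SE 0.29, adjusted p = 0.689), within the 191 to 554 of the other mice for 3 of the 4 sums. Kif5c, a neuronal kinesin, stood at 42.7 and 110 CPM in mouse 1 and 85.8 and 132 in mouse 2.

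The NF-κB feedback regulators, the brakes that the pathway switches on, were at like levels in marked and unmarked nuclei of the same mouse, and none passed the test. Of 20 genes listed, 15 passed the filter on low counts, 9 had a log2 difference above 0 and 6 below, 0 were called, and the median was 0.02, beside -0.01 over all genes tested. Summed over the list, mouse 1 had 1568 CPM in unmarked and 1474 in marked nuclei and mouse 2 had 1375 and 1450, all above the 807 to 1077 of unmarked microglia in the other 9 mice. Set against those 9 mice, the marked sums of both mice were above each of them for 9 of the 15 genes, and the unmarked sums for 8. Over all genes tested these shares were 4.13% for marked and 4.01% for unmarked sums. These levels against other genotypes come from the contrast that chose the marker genes and carry no test. A gene could also pass the filter on low counts through the ikbkbCA;P301S+ sums alone, which favours a place above the other mice. That holds for all genes tested as well.

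Individual regulators, most of them picked after their values were seen, are given here with all nuclei counted. Traf3, a ubiquitin ligase adaptor that holds back the non-canonical branch, stood at 467 and 423 CPM in unmarked and marked nuclei of mouse 1 and at 397 and 457 in mouse 2 (0.03, SE 0.23, edgeR adjusted p = 0.997), against 135 to 270 in the other 9 mice. Birc3, which encodes the ubiquitin ligase cIAP2, stood at 146 and 146 CPM in mouse 1 and 97.8 and 114 in mouse 2, against 31.8 to 57.7. Tnip1, a partner of A20, stood at 111 and 113 CPM and at 124 and 125, against 15 to 40.7. All 4 sums of each of these genes were above all 9 other mice, whether or not the nuclei held marker UMIs.

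The IκB genes Nfkbia and Nfkbie had the same order at lower levels. Nfkbia, which encodes IκBα, stood at 33.2 and 28.6 CPM in mouse 1 and 37.9 and 35.5 in mouse 2, against 1.71 to 22.4 in the other 9 mice. Nfkbie, which encodes IκBε, stood at 26.9 and 25.1 CPM and at 21.9 and 25.8, against 1.71 to 15. Tnfaip3, which encodes A20, was the list's member with the smallest p: it had 11.1 and 26.0 CPM in mouse 1 and 9.98 and 20.9 in mouse 2 (1.15, SE 0.53, edgeR adjusted p = 0.842), against 4.00 to 17. Here both marked sums were above all other mice and both unmarked sums were among them. The members with the next smallest p had log2 differences on both sides of 0, and none was called. Otulin stood at -0.33, Nfkbiz, which encodes an IκB family member, at -0.34, Tnip2 at -0.27, Birc2 at 0.24 and Zc3h12a at 0.21.

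**Figure D4:**
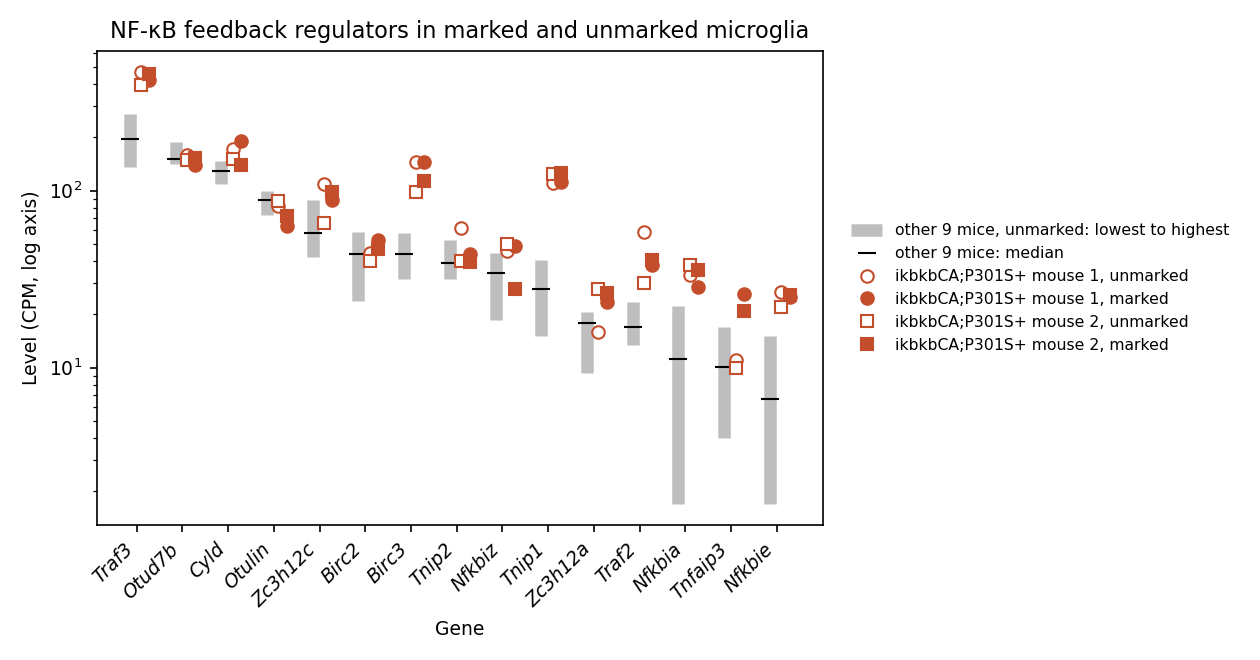
Levels in CPM (logarithmic vertical axis) of the 15 NF-κB feedback regulators that passed the filter (horizontal axis), in unmarked (open) and marked (filled) microglia of ikbkbCA;P301S+ mouse 1 (circles) and mouse 2 (squares), with the range (grey) and median (line) of unmarked microglia of the other 9 mice. Open and filled symbols of Traf3, Birc3 and Tnip1 lie together above the grey ranges, and for Tnfaip3 the filled symbols alone do.

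Of the IKK complex and NF-κB subunits, 15 of 16 were tested, 7 had a difference above 0 and 8 below, 0 were called and the median was -0.01. Both marked sums were above all 9 other mice for 3 of the 15, Relb, Nfkb1 and Ikbke, and below for 1, and both unmarked sums were above for 2. Over all genes tested, marked sums were above for 4.13% and below for 3.73%, and unmarked sums were above for 4.01%. The limit of the low-count filter given for the feedback regulators applies here too. Relb, the subunit of the non-canonical branch, stood at 109 and 113 CPM in mouse 1 and 134 and 140 in mouse 2 (0.06, SE 0.36, edgeR adjusted p = 0.995), against 15 to 64.8 in the other 9 mice. Nfkb1, which encodes p105 and p50, stood at 528 and 500 CPM and at 437 and 459, against 294 to 428. Ikbke, the inducible IKK-related kinase, stood at 9.49 and 27.7 CPM in mouse 1 and 33.9 and 59.9 in mouse 2 (1.07, SE 0.55, adjusted p = 0.872), against 0 to 14.8. Map3k14, which encodes the kinase NIK, had lower values in marked nuclei, at 144 and 123 CPM and 168 and 110 (-0.42, SE 0.19, adjusted p = 0.842).

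Of 45 inflammatory targets of NF-κB, which are cytokines, chemokines and adhesion molecules, 14 passed the filter, 9 had a difference above 0 and 5 below, 0 were called and the median was 0.03. Icam1, a leukocyte adhesion molecule, stood at 90.2 and 91.0 CPM in mouse 1 and 87.8 and 107 in mouse 2, against 15 to 59.2 in the other 9 mice. Cxcl16, a membrane-bound chemokine, stood at 30.1 and 24.3 CPM and at 31.9 and 37.6, against 0 to 15. C3, the central complement component, stood at 1.58 and 7.80 CPM in mouse 1 and 18.0 and 21.6 in mouse 2, against 0 to 1.37. Both marked and both unmarked sums were above all 9 other mice for 5 of these 14 genes, C3, Vcam1, Icam1, Cxcl16 and Cd80, beside 141 of the 9549 genes tested. For C3 the unmarked value of mouse 1, 1.58 CPM against up to 1.37, rests on very few UMIs. C3 also passed the filter on low counts only through the ikbkbCA;P301S+ sums, which favours a place above the other mice. Of 27 genes of TNF, IL-1 and Toll-like receptor signalling, 20 were tested, 7 had a difference above 0 and 13 below, 0 were called and the median was -0.17 (-0.27 in mouse 1 and 0.05 in mouse 2 alone). Tlr7, a sensor of single-stranded RNA, had the values 165 and 114 CPM in mouse 1 and 106 and 68.3 in mouse 2 (-0.57, SE 0.26, edgeR adjusted p = 0.842).

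The medians of the NF-κB lists differed in sign between the mice, at -0.09 and 0.03 for the feedback regulators in mice 1 and 2, -0.15 and 0.07 for the IKK and NF-κB genes and -0.03 and 0.22 for the inflammatory targets. They also moved with the deep nuclei. With nuclei of more than 5000 UMIs left out, the median over all genes was 0.00 and those of the feedback regulators, the IKK and NF-κB genes and the inflammatory targets were 0.15, 0.22 and 0.32, and still 0 genes were called. With doublets left out they were 0.15, 0.18 and 0.25. Per nucleus thinned to 1500 UMIs, the feedback regulators gave 2.48 UMIs in unmarked and 2.52 in marked nuclei of mouse 1 and 2.25 and 2.50 in mouse 2, and 1.17 to 1.80 in unmarked microglia of the other 9 mice. The inflammatory targets gave 2.56 and 2.73 UMIs and 2.15 and 2.68, against 1.84 to 2.40. The unmarked nuclei of mouse 2, which held the macrophage and lymphocyte markers given above, had the lowest value of the 4 for both lists, and the part of those markers in it was not tested.

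Homeostatic microglia genes, which mark the resting state, mostly had lower values in marked nuclei, but none was called. Of 25 tested of 30, 5 had a difference above 0 and 20 below, and the median was -0.20. It was 0.05 without nuclei of more than 5000 UMIs, and per nucleus thinned to 1500 UMIs the list gave 21.3 UMIs in unmarked and 20.5 in marked nuclei of mouse 1 and 17 and 17.3 in mouse 2, against 20.5 to 24.1 in the other 9 mice. Csf1r, the receptor that keeps microglia alive, stood at 820 and 646 CPM in mouse 1 and 724 and 561 in mouse 2 (-0.36, SE 0.15, edgeR adjusted p = 0.831). Gpr34, a lysophosphatidylserine receptor, stood at 131 and 113 CPM and at 99.8 and 62.0, against 120 to 200. Cx3cr1, the fractalkine receptor whose locus carries the Cre, stood at 530 and 460 CPM in mouse 1 and 355 and 367 in mouse 2, against 488 to 802 in the other 9 mice. The ikbkb-/-;P301S+ mice, which carry the same Cre allele, stood at 613 and 671 CPM. The marked sums of both mice were below each of the other 9 mice for 9 of the 25 genes and the unmarked sums for 2, with a background of 3.73% and 3.58% of all genes.

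Of 20 microglia markers outside the gate, 1 had a difference above 0 and 19 below, 0 were called, and the median was -0.25 with all nuclei and 0.02 without those of more than 5000 UMIs. Disease-associated microglia genes, which rise around plaques and tangles, were tested for 22 of 33: 11 had a difference above 0 and 11 below, 0 were called, and the median was 0.00. Ank, a phosphate transporter, stood at 128 and 201 CPM in mouse 1 and 144 and 176 in mouse 2 (0.48, SE 0.23, edgeR adjusted p = 0.855), against 180 to 380 in the other 9 mice. Gpnmb, a membrane glycoprotein of lysosome-rich macrophages, differed between the mice more than between the classes: it was at 0 and 13.9 CPM in mouse 1 and at 57.9 and 76.7 in mouse 2, against 0 to 6.17.

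Antigen presentation genes were tested for 18 of 22, with 2 above 0 and 16 below, 0 called and a median of -0.58 (-0.31 without nuclei of more than 5000 UMIs). With no filter on low counts, H2-Eb1 and H2-Aa were called lower. The median rested on mouse 2, whose own median was -0.59, against -0.09 in mouse 1. H2-Aa, a class II chain, stood at 0 and 0.866 CPM in mouse 1 and at 39.9 and 2.09 in mouse 2, and H2-Eb1 at 0 and 0 CPM and at 33.9 and 0.697. H2-Ab1, another class II chain, stood at 3.16 and 2.60 CPM and at 31.9 and 6.27. In the other 9 mice H2-Aa stood at 0 to 25.6, H2-Eb1 at 0 to 31.6 and H2-Ab1 at 1.12 to 25.6 CPM. For all 3 the unmarked nuclei of mouse 2, which held the most perivascular macrophage markers, were the highest. The perivascular macrophage list itself had 5 of 9 genes tested, all below 0, with 0 called in the 13-sum fit and a median of -2.07, which was -0.77 without the nuclei holding at least 3 of these or of the lymphocyte markers. F13a1, Dab2 and Mrc1 were called lower with no filter on low counts, and Dab2 and Mrc1 also in the 3 fits of 4 sums. The summed level of the list was 223 CPM in unmarked and 178 in marked nuclei of mouse 1 and 904 and 141 in mouse 2, against 255 to 726 in the other 9 mice. Cd163, Lyve1, Pf4 and Cbr2 were at 0 in both marked sums. The lymphocyte list had 1 of 8 genes tested, Skap1, at -2.99, and summed levels of 38.0 and 7.80 CPM and of 198 and 16.0, against 7.82 to 91.9.

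Of 41 interferon response genes, 17 were tested, 2 had a difference above 0 and 15 below, 0 were called and the median was -0.24 (-0.03 without nuclei of more than 5000 UMIs). Ifi213, an interferon-inducible nuclear protein, stood at 17.4 and 8.66 CPM in mouse 1 and 25.9 and 2.79 in mouse 2. Mndal, of the same gene family, was at 0 in both classes of mouse 1 and at 45.9 and 0.697 CPM in mouse 2, again high in the unmarked nuclei of mouse 2. Ifi213 was called lower in the 4-sum fit and Mndal with no filter on low counts.

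No gene of the families to which the markers belong passed the test in the 13-sum fit. Among 20 chemoattractant receptors, beside Ccr9, 5 were tested, 2 above 0 and 3 below, with a median of -0.08 (-0.33 in mouse 1 and 0.05 in mouse 2). Hippo pathway genes and TEAD partners had 11 of 24 tested, 7 above 0 and 4 below, with a median of 0.03 (-0.10 and 0.16). Retinoid X receptor partners and retinoid handling had 14 of 29 tested, 7 above 0 and 7 below, with a median of -0.01 (-0.07 and 0.11). Rarb, a retinoic acid receptor that pairs with RXR proteins, had opposite orders in the 2 mice, with 172 CPM in unmarked and 423 in marked nuclei of mouse 1 and 217 and 140 in mouse 2.

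Genes of D-amino acid and aspartate metabolism had 8 of 12 tested, 5 above 0 and 3 below, with a median of 0.25. Aspa, the aspartoacylase of oligodendrocytes, stood at 44.3 and 21.7 CPM and 77.8 and 31.4 (-1.19, SE 0.37, edgeR adjusted p = 0.760). Sarcomere genes had 5 of 26 tested, 3 above 0 and 2 below, with a median of 0.20, which rested on mouse 1 (0.61 in mouse 1 and 0.00 in mouse 2). Tpm1, a tropomyosin found in many cells, stood at 33.2 and 52.0 CPM in mouse 1 and 31.9 and 61.3 in mouse 2 (0.79, SE 0.28, adjusted p = 0.809). In the 13-sum fit no gene of these 5 families was called. Aspa was called in the 4-sum fit with all nuclei and with nuclei of at most 5000 UMIs. Cell cycle genes had 2 of 22 tested, both below 0, with a median of -0.61 and 0 called.

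Among lists of other cell types, 0 genes were called in the 13-sum fit. In the 4-sum fit Rbfox3 and Pacsin1 were called higher, and with nuclei of at most 5000 UMIs St18, an oligodendrocyte marker, was called lower. With no filter on low counts the lymphocyte markers Skap1, Themis and Cd247 were called lower. Excitatory neuron markers had 8 of 11 tested, all above 0, with a median of 0.31, which was -0.10 without nuclei of more than 5000 UMIs. Inhibitory neuron markers had 5 of 9 tested, 4 above 0 and 1 below, with a median of 0.24 and -0.16 without those nuclei. Oligodendrocyte markers had 10 tested, all below 0, with a median of -0.48. Astrocyte markers had 6 of 10 tested, 1 above 0 and 5 below, with a median of -0.07 (-0.39 in mouse 1 and 0.18 in mouse 2) and 0.32 without deep nuclei. The neuron lists thus had medians above 0 with all nuclei and below 0 without the deep ones. The part of stray or doublet RNA in these values was not tested.

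Oligodendrocyte precursor markers had 5 of 7 tested, 1 above 0 and 4 below, with a median of -0.60 that rested on mouse 2 (0.09 in mouse 1 and -0.59 in mouse 2). Plasmacytoid dendritic cell markers had 4 of 10 tested, 3 above 0 and 1 below, with a median of 0.31, led by Pacsin1, which neurons also express, and for monocyte, neutrophil and dendritic cell markers 2 of 10 were tested, both above 0, with a median of 0.23 (0.44 in mouse 1 and 0.00 in mouse 2). Endothelial markers had 3 of 9 tested, all above 0, with a median of 1.47 that rested on mouse 2 (0.00 and 2.17). Mural cell markers had 2 of 7 tested, both below 0, with a median of -1.57, and the mice had opposite signs (0.79 and -1.76). Fibroblast markers had 1 of 6 tested, at 0.71, again with opposite signs (1.18 and -0.39). Over the 27 lists, 21 of 247 different genes tested had an unadjusted p under 0.05 and 0 were called.

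**Figure D5:**
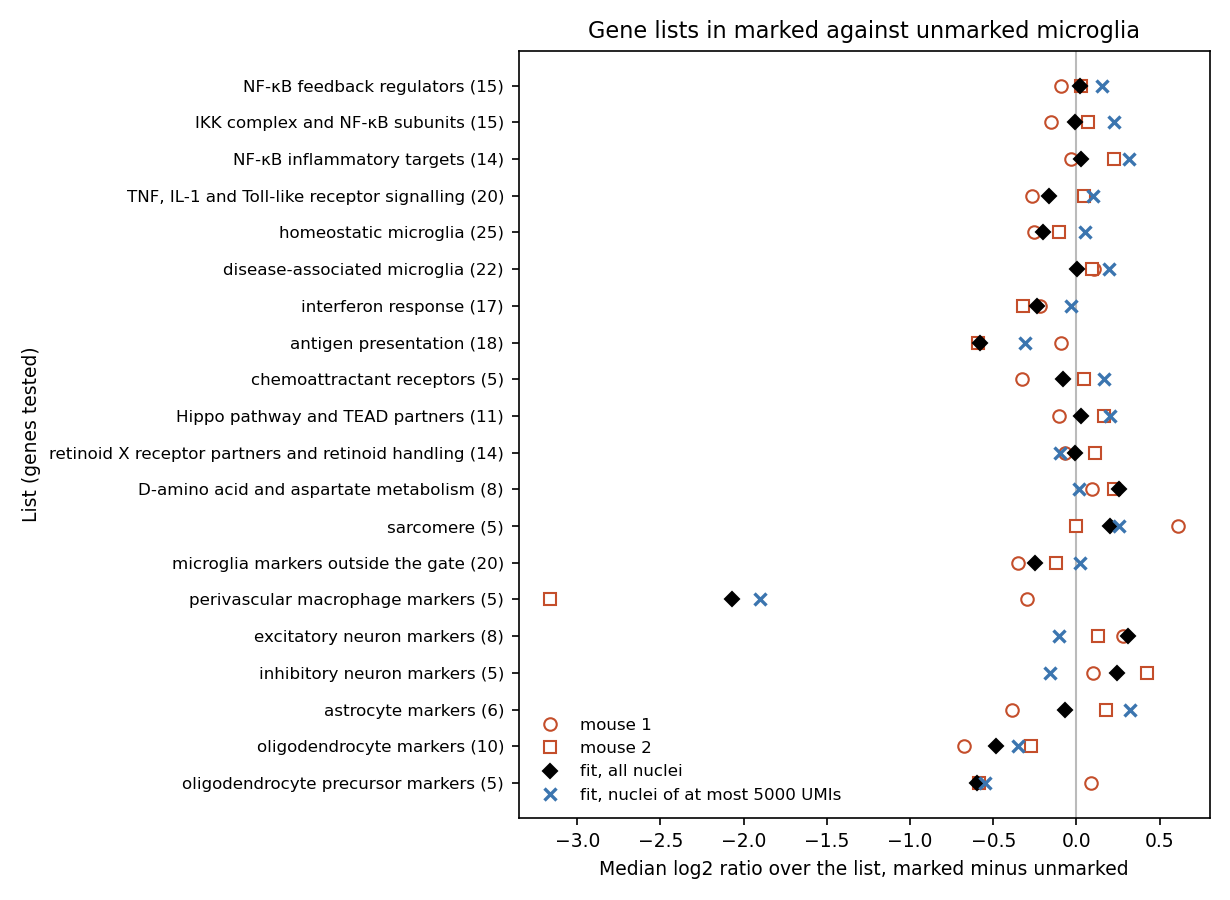
Median log2 difference of each list with at least 5 genes tested (vertical axis, genes tested in parentheses), marked minus unmarked, from the fit over all nuclei (diamonds), from the fit without nuclei of more than 5000 UMIs (crosses), and in mouse 1 (circles) and mouse 2 (squares) alone. Most lists lie near 0, and the perivascular macrophage markers lie at -0.30 in mouse 1 and -3.16 in mouse 2.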

How the data were processed

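Single-nucleus libraries (10x Genomics 3′ chemistry) of 11 mouse cortices were used. The matrices deposited by the authors hold raw UMI counts per gene and barcode, made with Cell Ranger 3.1.0 on mm10 pre-mRNA, per the submitters' processing notes and the study's methods. Deposited gene and barcode lists named rows and columns. The microglia gate and marker genes were those given in the report. Oligodendrocyte and astrocyte nuclei met the same limits of genes, mitochondrial UMIs and Slc17a7, and held several markers of their type. They held none of the microglia gate genes, so nuclei with stray RNA of those genes were left out. Excitatory neuron nuclei lay outside the microglia gate and held more Slc17a7 than it allows. The members, gene lists and gates were chosen with earlier results of these data known. Doublets were scored by k-nearest neighbours of simulated pairs (0.8% per 1000 barcodes), kept in the main comparison and left out in an alternative.

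Counts were summed per mouse and class. edgeR 4.0.16 (R 4.3.3; glmQLFit, glmQLFTest, TMM, filterByExpr) was fitted to 13 sums, which were the marked and unmarked sums of the 2 ikbkbCA;P301S+ mice and the unmarked sums of the other 9 mice, which served for the spread. Both classes come from the same mouse, so each ikbkbCA;P301S+ mouse had its own term (a block), and the other mice had 1 term per genotype, so that the spread among mice of a genotype entered the estimate. The 14 rule genes (13 of the gate and marker sets and Slc17a7) were left out. A gene counted as called where its adjusted p (Benjamini-Hochberg) was under 0.05 and its log2 fold change was over 0.1 in size. DESeq2 1.42.0 was an alternative. Nuclei were not used as replicates. The differences tested rest on 2 mice. In the 13-sum fit the p-values rest mostly on the spread among the unmarked sums of the other 9 mice. That spread lies between mice and is not the spread of a difference within 1 mouse. Levels are CPM of the sums, and ratios within 1 mouse used a prior count of 2. Thinning drew 1500 UMIs per nucleus and left out shallower nuclei. Depth per sum was 493462 to 1769561 UMIs, with a biological coefficient of variation of 14.1%. In simulated counts for 9549 genes of this comparison, with a spread common to all genes, 2 of 55 genes changed 1.5-fold were recovered. So were 22 of 76 changed 2-fold and 49 of 69 changed 3-fold, and 2 of 9349 unchanged genes were called. Named were the marker genes and Ikbkb, called genes at 50 CPM or more with the same sign in both mice, of which there were 0, and per list up to 6 members with the smallest p. The genes with the smallest p over all genes, the regulators said to be picked later and the examples from alternatives were added after their values were seen. Alternatives concerned the normalization and tool, filter, block, marker threshold, each marker gene, depth, doublets and each mouse.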

Additional observations from a re-analysis of the deposited data

Results flagged for a closer look

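Among 43 values examined in the group of 4 ikbkb+/+ mice, the group large enough for a check of single samples, 2 had a mouse far from the others in unmarked microglia. Chance marks about 1 in 20 such groups. The summed level of the homeostatic microglia genes was 12366 CPM in ikbkb+/+ replicate 4, against 13860 to 14065 CPM in the other replicates. The summed level of the interferon response genes was 833 CPM in ikbkb+/+ replicate 3, against 645 to 668 CPM in the others. Neither mouse entered the within-mouse comparison other than through the shared estimate of spread.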

How the results depend on the processing

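The share of marked microglia had a mean of 48.1% over the 2 mice. It was 31.4% at 3 or more marker UMIs, 70.7% at 1 or more, 38.8% without Ttn, 38.5% without Ddo, 35.0% without Rxrg and 30.2% with Ttn, Rxrg and Ccr9 alone, and 41.9% to 54.2% with each mouse left out. In each of these settings both ikbkbCA;P301S+ mice were above all 9 others. The within-mouse comparison called 0 genes higher and 0 lower, also without the block on mouse, where 514 genes had an unadjusted p under 0.05. Settings that gave calls were no filter on low counts (20 higher, 12 lower), the 4 sums alone (69 higher, 8 lower), the 4 sums with nuclei of at most 5000 UMIs (3 higher, 13 lower) and the 4 sums with nuclei matched by depth (2 higher, 11 lower). With each mouse left out there were 0 to 1 genes higher and 0 lower. The cause was not tested. Dab2, Mrc1, Skap1 and Fam19a1 were called in the first 4 of these settings. Depth limits the reading: at a median of 2400 and 2567 UMIs a nucleus with 0 marker UMIs may still express the genes, and in simulated counts most changes of 2-fold or less went undetected.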
